A study of Homo sapiens with 6 samples.

Results

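The 8 hepatocyte transcription factors described here are HNF4A, FOXA1, FOXA2, FOXA3, CEBPA, CEBPB, NR1H4 and ONECUT1. They were chosen by name, and each was found once among the 58676 gene IDs of the table through the symbols of GENCODE release 29. Total RNA of a human hepatocellular carcinoma (HCC) cell line, which the labels do not name further, was sequenced. Libraries labelled knockdown carry a sponge in their titles and are compared with libraries labelled control, 3 of each. A sponge is a transcript with binding sites that take up a microRNA, and the series title names miR-19a. All groups were grown in the same serum-containing medium. The labels give no sponge construct, no number of clones and no time of treatment, and no label says that replicates are separate cultures. The p-values below therefore describe the spread between libraries, which may be technical. Knockdown replicate 2 was left out because its values did not follow the gene IDs (rank correlation across genes 0.017 to 0.019 with each of the other 5 libraries, which reached 0.82 to 0.89 among themselves). This leaves 2 knockdown and 3 control libraries.

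Hepatocytes keep their identity through a small circuit of transcription factors that bind each other's genes and those of the liver's secreted and metabolic proteins. FOXA proteins bind closed chromatin first and make it accessible, HNF4A and C/EBP proteins then drive most liver genes, and NR1H4, the bile acid receptor FXR, and ONECUT1, also called HNF6, act on bile acid handling and on the development of liver, bile duct and pancreas. In liver cancer, loss of HNF4A and C/EBP alpha is a known mark of dedifferentiation.

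MicroRNAs of the miR-19 family pair through bases 2 to 8, the seed, with messenger RNAs. The mature sequences (RefSeq, GRCh38.p14) are shown because the series title names miR-19a, with the seed in capitals.
hsa-miR-19a-3p: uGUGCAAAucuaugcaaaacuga
hsa-miR-19b-3p: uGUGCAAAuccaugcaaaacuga
Both carry the same seed, and its match in a transcript reads TTTGCAC. None of the 8 genes held TTTGCAC in its longest annotated 3' UTR, nor the shorter TTGCAC, in 0 of 8 genes each, searched on the transcript strand. Among all 19112 coding genes with an annotated 3' UTR, 2603 (13.6%) held TTTGCAC. The 3' UTRs of HNF4A (4931 bases), CEBPA (1404 bases) and FOXA1 (1381 bases) were longer than the median of 1106 bases, and those of the other 5 genes, 566 to 924 bases, were shorter. The absence of the letters says nothing about sites of other form or outside these annotated ends. None of the 5 libraries had a value above 0 for the genes MIR19A, MIR19B1 or MIR19B2, and standard RNA-seq libraries do not capture mature microRNAs. Their host transcript MIR17HG was at 1.26 and 1.13 RPKM in knockdown, against 0.811, 0.441 and 1.24 RPKM in control, so these values do not check the labels, since a sponge need not lower them.

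The RPKM values correspond to a gene-assigned total of 9296308 and 15198231 reads in knockdown replicates 1 and 3, against 9181567, 1948940 and 19605312 reads in control replicates 1, 2 and 3. RPKM divides a gene's reads by its exon length and by the size of its library, so levels of different genes can be roughly compared. The exon length sums all annotated exons of a gene, not those of the transcripts expressed, so such comparisons are approximate. Hepatocyte products were expressed: of 16 listed, 15 passed the filter of 0.5 RPKM in at least 3 libraries. Their summed level was 3345 to 3801 RPKM in knockdown and 2889 to 3445 RPKM in control. These levels do not test the HCC label beyond hepatocyte-like expression. ALB, serum albumin, was at 817 and 869.6 RPKM in knockdown and at 652 to 951 RPKM in control, and AFP, the fetal albumin-like protein, at 231 and 260.1 RPKM in knockdown and 217 to 312 RPKM in control. Of 10 markers of bile duct cells, 6 passed the filter, 4 above and 2 below 0, and none was called. Of these 6, knockdown lay above all controls for 3 and below all controls for 2, against 14.3% and 13.6% of all genes tested. The summed level of the 10 was 434 to 542 RPKM in knockdown and 294 to 431 RPKM in control. It was led by KRT19, a keratin, at 281 and 378 RPKM in knockdown and 154 to 273 RPKM in control. Next came EPCAM (59.6 and 72.5 against 41.1 to 67.3 RPKM) and ANXA4 (56.7 and 56.2 against 36.6 to 45.4 RPKM). The part of these genes in the results below was not tested. The fibroblast list summed to 68.7 to 72.9 RPKM in knockdown and 64.0 to 84.3 RPKM in control. LUM led it, at 54.5 and 53.5 RPKM in knockdown and 54.2 to 68.3 RPKM in control. COL1A2 (7.54 to 14.7 RPKM over all libraries) and COL1A1 (0.732 to 2.33 RPKM) followed, and THY1 was at 0. The blood and immune list summed to 47.7 to 54.3 RPKM in knockdown and 46.1 to 52.1 RPKM in control. CD14 led it, at 30.6 and 36.8 RPKM in knockdown and 28.6 to 38.4 RPKM in control. LYZ (8.59 to 11.6 RPKM over all libraries) and CD3D (3.07 to 6.14 RPKM) followed, and CD163, MS4A1 and HBB were at 0. The endothelial list summed to under 1 RPKM in every library, with KDR, CLEC4G and TEK at 0. PECAM1 led it, at 0.360 and 0.322 RPKM in knockdown and 0.513 to 0.661 RPKM in control, while VWF and STAB2 were at or below 0.0988 RPKM.

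All 8 factors were expressed in all 5 libraries and passed the filter of 0.5 RPKM in at least 3 of them. None changed at a limma adjusted p under 0.05, and neither did any other of 15408 genes tested (0% called), while an unadjusted p under 0.05 was met by 585 genes above and 392 below 0. Limma voom on reads recovered from the RPKM also called 0. Values are differences on the log2(RPKM + 0.5) scale, knockdown minus control, which understates changes of low genes. NR1H4 was furthest below its control level, at 68.5% of the control mean in knockdown. It was the single factor at an unadjusted p under 0.05, 1 of 8, against 6.34% of all genes. The 8 differences ran from -0.51 to 0.29, 4 above and 4 below 0, with a median of -0.023 beside -0.00020 over all genes tested. In bulk RNA, fewer cells that express a gene and less RNA per cell cannot be told apart.

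**Figure D1:**
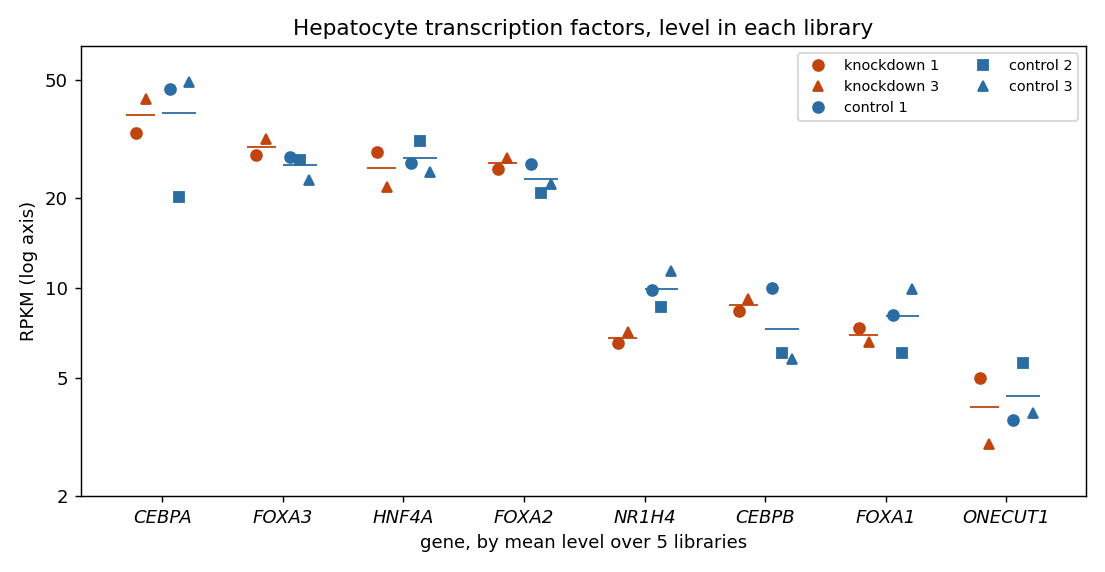
RPKM (log axis) of the 8 factors in each of 2 knockdown libraries (orange) and 3 control libraries (blue), with horizontal lines at the group means. CEBPA, FOXA3, HNF4A and FOXA2 lie at 20 RPKM or more in every library, the other 4 below 12 RPKM, and NR1H4 is the gene whose knockdown points all lie under its control points.

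The factors fell into an upper and a lower tier that did not overlap. CEBPA averaged 38.5 RPKM over the 5 libraries, FOXA3 27.5, HNF4A 26.4 and FOXA2 24.4 RPKM, and these 4 lay between the 87.8 and 92.5 percentile of the mean level of genes tested. NR1H4 averaged 8.70, CEBPB 7.87, FOXA1 7.60 and ONECUT1 4.197 RPKM, the last near the middle of all genes (49.6 percentile). The lowest upper-tier value, 20.3 RPKM for CEBPA in control replicate 2, was above the highest lower-tier value, 11.4 RPKM for NR1H4 in control replicate 3. Within the upper tier the ranges of neighbours overlapped: FOXA3 exceeded HNF4A in 2 of 5 libraries, and CEBPA exceeded FOXA3 in 4 of 5. In the lower tier NR1H4 exceeded CEBPB in 2 of 5 libraries and CEBPB exceeded FOXA1 in 3 of 5, so their order is not settled beyond the spread. ONECUT1 was last in each of the 5 libraries.

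HNF4A, the nuclear receptor at the centre of the circuit, was at 28.7 and 21.8 RPKM in knockdown replicates 1 and 3, against 26.2, 31.1 and 24.4 RPKM in control replicates 1, 2 and 3. The groups overlapped, with the highest value in control replicate 2 and the lowest in knockdown replicate 3. The mean was 25.3 ± 4.84 RPKM (SD, n = 2) in knockdown and 27.2 ± 3.45 RPKM (SD, n = 3) in control, a log2 difference of -0.11 (SE 0.19, 95% interval -0.60 to 0.37, limma adjusted p = 0.887). HNF4A (ENSG00000101076, GRCh38 chromosome 20 from 44355700 to 44434596, plus strand) rests on 443 to 3503 reads per library, so counting error was below the spread between replicates: in knockdown the exact Poisson 95% intervals, which cover counting error only, were 27.4 to 29.98 and 21.0 to 22.7 RPKM. Its antisense transcript HNF4A-AS1, inside the gene, had 0 and 5 reads in knockdown and at most 1 read in each control. No label says if reads were counted by strand, so overlapping genes on opposite strands cannot be told apart. The gene has a downstream P1 promoter, the main promoter of adult hepatocytes, and an upstream P2 promoter, and gene-level values add both.

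ONECUT1, a cut-homeodomain factor that in mice acts upstream of Hnf4a in liver development, was at 5.001 and 2.99 RPKM in knockdown replicates 1 and 3 and at 3.59, 5.60 and 3.80 RPKM in control replicates 1, 2 and 3. As with HNF4A, control replicate 2 and knockdown replicate 1 were the highest libraries and knockdown replicate 3 the lowest. ONECUT1 (ENSG00000169856, chromosome 15 from 52756989 to 52791078, minus strand) averaged 3.996 ± 1.42 RPKM (SD, n = 2) in knockdown and 4.33 ± 1.10 RPKM (SD, n = 3) in control. The log2 difference was -0.12 (SE 0.29, 95% interval -0.85 to 0.62, limma adjusted p = 0.923). After centring on their means, HNF4A and ONECUT1 lay on the same side of 0 in 5 of 5 libraries, at a Euclidean distance of 0.303, the second smallest of the 28 pairs of factors. Both were on the opposite side from CEBPA in every library. HNF4A was at only -0.0027 in control replicate 1, so its side there is not settled. Among all genes tested, DNAH1 (0.0609) and SLC6A11 (0.0640) were closer to HNF4A than ONECUT1 was. The window around the upstream start of HNF4A (RefSeq, GRCh38.p14, chr20:44355449-44355748, plus strand, 250 bases before to 50 after the start) is shown because it holds a match to the letters ATCAATA, a form of the ONECUT1 motif, in capitals.
HNF4A promoter: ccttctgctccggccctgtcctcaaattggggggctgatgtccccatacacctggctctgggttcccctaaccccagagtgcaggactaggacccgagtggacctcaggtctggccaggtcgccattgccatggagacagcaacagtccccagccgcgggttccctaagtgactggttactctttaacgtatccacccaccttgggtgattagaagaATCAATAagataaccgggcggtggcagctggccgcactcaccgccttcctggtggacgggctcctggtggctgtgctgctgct
The match begins at base -33, and 469 of 27305 promoters of this length (1.72%) held ATCAATA on either strand. It was the single one among the 7 factor promoters that matched by symbol. The P1 promoter is not in this window, and a match of letters does not show binding.

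The FOXA genes encode forkhead pioneer factors that bind the same DNA sequence. FOXA2 was at 25.0 and 27.4 RPKM in knockdown, against 26.2, 20.9 and 22.4 RPKM in control, with control replicate 1 inside the knockdown range. FOXA3 was at 28.0 and 31.7 RPKM in knockdown, against 27.5, 26.9 and 23.1 RPKM in control. Both knockdown libraries of FOXA3 lay above all 3 controls, as for 14.3% of all genes tested, but knockdown replicate 1 exceeded control replicate 1 by less than the counting interval of either (25.8 to 30.4 RPKM in knockdown, 25.3 to 29.9 RPKM in control). FOXA1 was at 7.32 and 6.61 RPKM in knockdown and at 8.12, 6.06 and 9.90 RPKM in control, where control replicate 2 was the lowest of the 5 libraries and control replicate 3 the highest. FOXA2 averaged 26.2 ± 1.65 RPKM (SD, n = 2) in knockdown and 23.2 ± 2.73 RPKM (SD, n = 3) in control. FOXA3 averaged 29.9 ± 2.60 RPKM in knockdown and 25.9 ± 2.38 RPKM in control, and FOXA1 6.97 ± 0.503 RPKM in knockdown and 8.03 ± 1.92 RPKM in control, with the same numbers of libraries. The log2 differences were 0.18 (SE 0.16) for FOXA2, 0.21 (SE 0.16) for FOXA3 and -0.17 (SE 0.24) for FOXA1, at limma adjusted p of 0.788, 0.755 and 0.858. Summed, the 3 genes gave 60.4 and 65.7 RPKM in knockdown, against 61.8, 53.9 and 55.4 RPKM in control. FOXA1 made up 12.1% and 10.1% of that sum in knockdown, against 13.1%, 11.2% and 17.9% in control. FOXA2 and FOXA3 were the pair of factors with the smallest distance between their centred values (0.2496), on the same side of 0 in 5 of 5 libraries. FOXA3 was at only 0.010 and -0.021 in control replicates 1 and 2, so its side there is not settled. The gene positions on GRCh38 are chromosome 14 from 37589984 to 37596059 for FOXA1, chromosome 20 from 22581005 to 22585455 for FOXA2, and chromosome 19 from 45863989 to 45873797 for FOXA3. LINC00261, the noncoding neighbour of FOXA2, had 0 to 3 reads in every library, while FOXA2 itself had 106 to 1143. TTC6, which overlaps FOXA1 at its start on the other strand, was at 0.335 and 0.165 RPKM in knockdown and 0.123 to 0.244 RPKM in control.

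The C/EBP genes encode leucine zipper factors, C/EBP alpha tied to the resting differentiated hepatocyte and C/EBP beta to regeneration and the acute phase. CEBPA was at 33.0 and 43.1 RPKM in knockdown replicates 1 and 3, against 46.7, 20.3 and 49.2 RPKM in control replicates 1, 2 and 3. The mean was 38.1 ± 7.14 RPKM (SD, n = 2) in knockdown and 38.7 ± 16.0 RPKM (SD, n = 3) in control. Control replicate 2 stood apart, at 20.3 RPKM with a counting interval of 16.6 to 24.6 RPKM from 104 reads, while the other 4 libraries were at 33.0 RPKM or more. The log2 difference was 0.067 (SE 0.42, 95% interval -0.99 to 1.13, limma adjusted p = 0.97), the widest interval of the 8 factors, and it was -0.34 (SE 0.18) without control replicate 2. CEBPB was at 8.36 and 9.18 RPKM in knockdown, against 10.0, 6.03 and 5.76 RPKM in control. The mean was 8.77 ± 0.583 RPKM (SD, n = 2) in knockdown and 7.27 ± 2.39 RPKM (SD, n = 3) in control. Control replicate 1 was its highest library and the other controls its lowest, and the log2 difference was 0.29 (SE 0.27, 95% interval -0.38 to 0.97, limma adjusted p = 0.791). It was 0.53 (SE 0.21) without control replicate 1. CEBPA exceeded CEBPB 3.95-fold and 4.70-fold in knockdown, against 4.65-fold, 3.36-fold and 8.54-fold in control, and both knockdown ratios lay within the control range. CEBPA (chromosome 19 from 33299934 to 33302564, minus strand) and its divergent noncoding neighbour CEBPA-DT, which starts at 33302857 on the plus strand, shared their lowest library, control replicate 2. CEBPA-DT was at 7.83 and 7.81 RPKM in knockdown, against 6.74, 5.14 and 6.10 RPKM in control, a log2 difference of 0.37 (SE 0.17, limma adjusted p = 0.71). CEBPB (chromosome 20 from 50190734 to 50192689) overlaps CEBPB-AS1, which had 6 and 8 reads in knockdown and 2 to 17 reads in control.

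NR1H4, which encodes FXR, was at 6.52 and 7.11 RPKM in knockdown replicates 1 and 3, against 9.85, 8.63 and 11.4 RPKM in control replicates 1, 2 and 3. Both knockdown libraries lay below all 3 controls, as for 13.6% of all genes tested. The mean was 6.82 ± 0.415 RPKM (SD, n = 2) in knockdown and 9.95 ± 1.38 RPKM (SD, n = 3) in control, a log2 difference of -0.51 (SE 0.18, 95% interval -0.95 to -0.065). Its limma p was 0.0314 unadjusted and 0.71 adjusted over all genes. In the lower direction, 2.54% of all genes had an unadjusted p under 0.05. An exact two-sided permutation test of the 5 values gave p = 0.1, the smallest that 2 against 3 libraries allow. The values rest on 220 and 392 reads in knockdown and 328, 61 and 809 reads in control. The counting interval of control replicate 2, 6.60 to 11.1 RPKM, took in the value of knockdown replicate 3 and not that of knockdown replicate 1, while those of control replicates 1 and 3 began at 8.81 and 10.6 RPKM, above the upper bounds of 7.45 and 7.85 RPKM in knockdown. The unadjusted limma p was 0.0129 without control replicate 2 and between 0.0721 and 0.149 without any other of the 5 libraries. NR1H4 (ENSG00000012504) lies on chromosome 12 from 100473708 to 100564413 of GRCh38, plus strand.

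**Figure D2:**
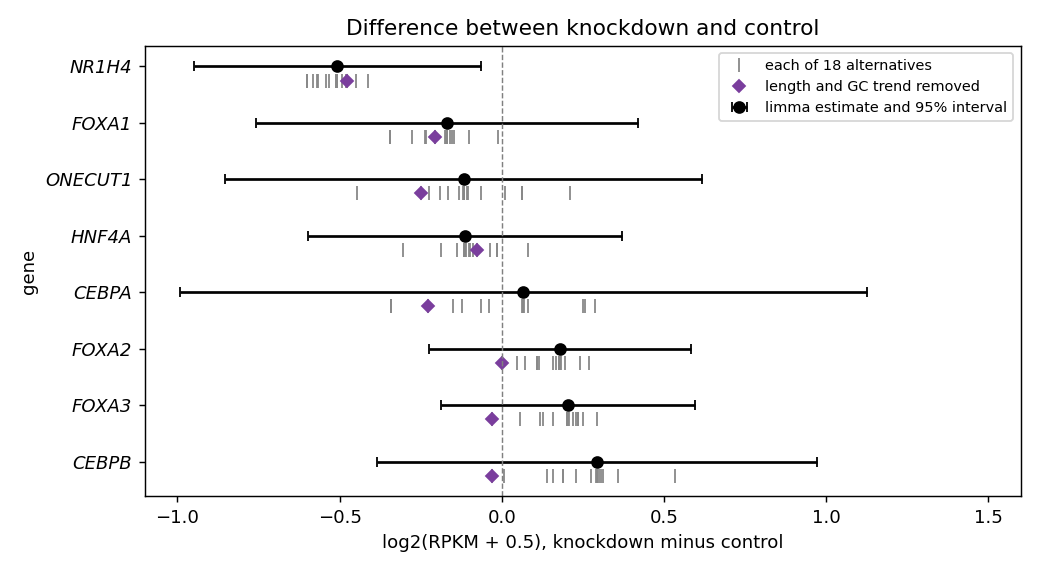
Log2 difference of each factor, knockdown minus control, with its 95% limma interval (black), the values under 18 alternative settings (grey ticks) and the value after removal of exon length and GC trends (purple). The interval of NR1H4, -0.95 to -0.065, leaves out 0 before adjustment, and those of the other 7 factors include it.

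The differences of the 8 factors followed the base composition of their transcripts. NR1H4 has the lowest GC content of its longest transcript, 40.6%, and CEBPA and CEBPB the highest, 65.9% and 66.2%, and across the 8 genes the log2 difference had a Pearson correlation of 0.90 and a Spearman correlation of 0.90 with GC content. These describe 8 genes measured in the same 5 libraries, which are not independent. Over all 15408 genes that rank correlation was 0.27. The libraries themselves differed in this respect: each gene's deviation from its mean had a Spearman correlation with GC content of 0.13 and 0.28 in knockdown replicates 1 and 3, against 0.10, -0.039 and -0.41 in control replicates 1, 2 and 3. After removal of the trends of each library with exon length and GC content, the log2 difference was -0.029 for FOXA3, -0.029 for CEBPB, 0.0010 for FOXA2 and -0.23 for CEBPA, and it stayed at -0.48 (SE 0.11) for NR1H4, at a limma p of 0.00611 unadjusted and 0.485 adjusted. The promoters of NR1H4 and CEBPA (RefSeq, GRCh38.p14) are shown because they had the lowest and highest GC content of the 7 factor promoters, 41.7% and 80.7%. Promoter GC content is not that of the transcript, and its relation to the differences was not tested. They lie at chr12:100503110-100503409, plus strand, and chr19:33302485-33302784, minus strand. The NR1H4 window lies at a start inside the gene, downstream of its first annotated start. Capitals mark TATAAA, the TATA box, searched on both strands.
NR1H4 promoter: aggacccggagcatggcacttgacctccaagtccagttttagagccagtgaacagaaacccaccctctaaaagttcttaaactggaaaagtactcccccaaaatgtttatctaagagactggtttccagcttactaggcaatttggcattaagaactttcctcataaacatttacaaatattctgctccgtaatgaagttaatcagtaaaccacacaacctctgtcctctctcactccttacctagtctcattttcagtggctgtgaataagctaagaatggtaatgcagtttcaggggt
CEBPA promoter: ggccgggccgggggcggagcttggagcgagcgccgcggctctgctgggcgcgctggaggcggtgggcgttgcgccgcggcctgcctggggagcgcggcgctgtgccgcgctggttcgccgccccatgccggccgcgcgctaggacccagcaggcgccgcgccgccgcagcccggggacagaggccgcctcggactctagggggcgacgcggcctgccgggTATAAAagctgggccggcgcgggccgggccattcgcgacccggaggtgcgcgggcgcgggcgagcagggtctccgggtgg
TATAAA begins at base -30 of CEBPA and at the same base of FOXA3, and 12% of 27305 promoters hold it somewhere in this window. It overlaps no other motif searched. GTAAACA (forkhead), CAAAGTCCA (HNF4) and TTGCGCAA (C/EBP) were in none of the 7 promoters on either strand, while 3.41%, 0.359% and 0.128% of all promoters held them. Each motif was searched in a single exact form, so the absence of these letters says nothing about other forms. The inverted repeat bound by FXR, searched as perfect half-sites 1 base apart, was in none of the 27305.

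**Figure D3:**
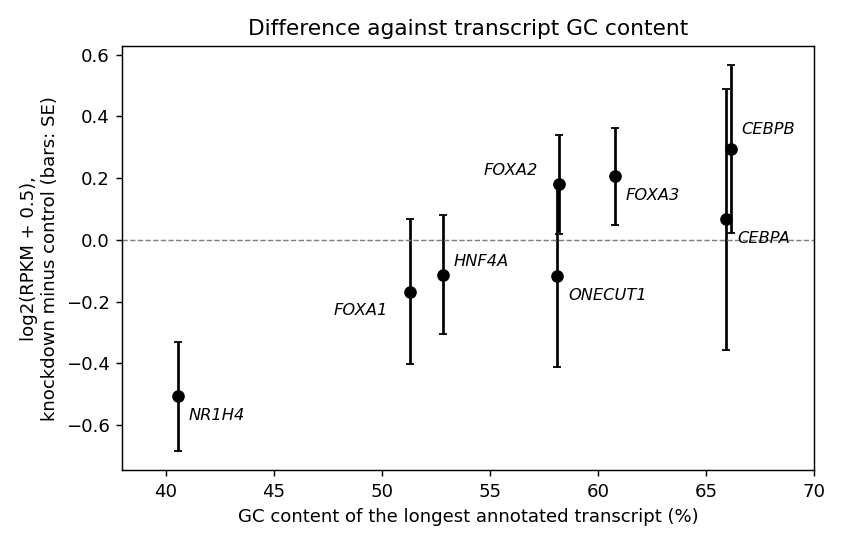
Log2 difference of each factor, knockdown minus control (vertical axis, bars show 1 SE), against the GC content of its longest annotated transcript in percent (horizontal axis). NR1H4 is at 40.6% GC and -0.51, CEBPB at 66.2% GC and 0.29.

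For 7 of the 8 factors, all but NR1H4, at least 1 control library lay on the same side of the gene's mean as a knockdown library. HNF4A and ONECUT1 were low in knockdown replicate 3 and high in control replicate 2. FOXA2, FOXA3 and CEBPB were above their means in both knockdown libraries and in control replicate 1 and below them in control replicates 2 and 3. For FOXA3 the values were only 0.010 in control replicate 1 and -0.021 in control replicate 2. FOXA1 was below its mean in both knockdown libraries and in control replicate 2, at -0.29 there, and above it in control replicates 1 and 3. NR1H4 was below its mean in both knockdown libraries and above it in all 3 controls, by 0.016 in control replicate 2. Among all 15407 other genes tested, those closest to HNF4A by the distance between centred log2 values over the 5 libraries were DNAH1 (0.0609) and SLC6A11 (0.0640). Those closest to CEBPA were CENPH (0.0611) and the processed pseudogene AC008507.1 (0.0867), which can share reads with its parent. Those closest to NR1H4 were CDC6 (0.0890) and ERCC8 (0.0957), and those closest to FOXA3 were IL11RA (0.0503) and TMEM60 (0.0724). With 5 libraries such closeness is a description of these columns.

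**Figure D4:**
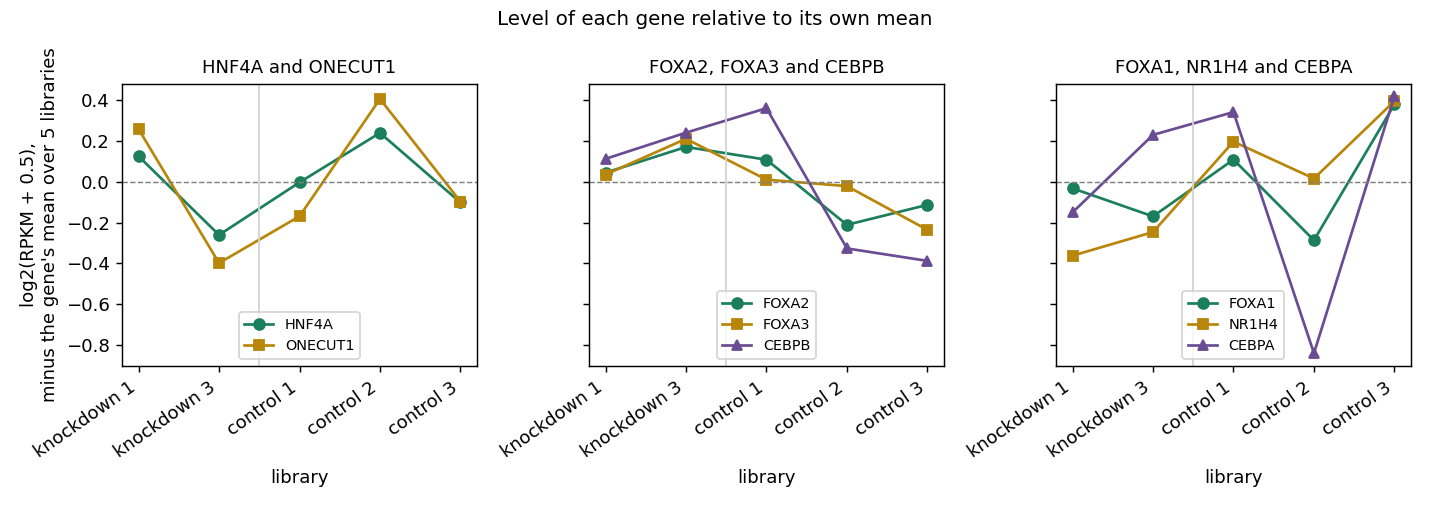
Level of each factor relative to its own mean, as log2(RPKM + 0.5) minus the mean over 5 libraries (vertical axis), in 2 knockdown and 3 control libraries (horizontal axis, separated by a grey line). HNF4A and ONECUT1 share their highest library, control replicate 2, and CEBPA is lowest there, at -0.84.

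The wider circuit around the 8 factors, taken from lists of known partners and targets, had no gene at a limma adjusted p under 0.05 either. Of 35 other liver transcription factors, 31 passed the filter, 15 above and 16 below 0, and their median log2 difference was -0.032, between -0.15 and 0.058 with 1 library left out. XBP1, which drives secretory capacity, and HHEX, an early liver bud factor, had overlapping groups, at 85.5 and 103.9 RPKM in knockdown against 71.3 to 124.7 RPKM in control, and at 32.3 and 36.0 RPKM in knockdown against 15.2 to 40.6 RPKM in control. CREB3L3, a membrane-bound factor for lipid genes, was at 66.2 and 60.8 RPKM in knockdown, against 42.1, 43.7 and 37.3 RPKM in control, a log2 difference of 0.63 (SE 0.15, adjusted p = 0.71).

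Of 13 C/EBP relatives and partners, 11 passed the filter, with 8 above 0 and 3 below it, and a median of 0.16, which was 0.011 without control replicate 2. CEBPD, the acute phase member of the family, was at 31.2 and 44.2 RPKM in knockdown, against 22.8, 15.1 and 21.9 RPKM in control. Both knockdown libraries of CEBPD lay above all 3 controls, as for 14.3% of all genes tested, while the groups of CEBPA and CEBPB overlapped. The log2 difference of CEBPD was 0.90 (SE 0.26, adjusted p = 0.71). Whether it differs from those of CEBPA and CEBPB was not tested. The transcript of CEBPD has a higher GC content than that of any of the 8 factors. The part of the GC trend in its difference was not tested. ATF4, a stress-response partner, was at 127.9 and 144.9 RPKM in knockdown and 98.4 to 141.5 RPKM in control, and TRIB3, a pseudokinase that binds it, at 36.8 and 39.0 RPKM in knockdown and 34.4 to 45.8 RPKM in control. Of 21 cofactors of nuclear receptors such as HNF4A and NR1H4, 18 passed the filter, 2 above and 16 below 0, with a median of -0.46. PRMT1 differed by -0.0012 (SE 0.19), HDAC3 by -0.00025 (SE 0.16) and NCOR1, a corepressor, by -0.44 (SE 0.18). The median exon length of the cofactors was 9559 bases beside 4044 bases over all genes tested, and across all genes the rank correlation of the log2 difference with exon length was -0.23. The cofactors' median was -0.24 with that trend removed and -0.26 without knockdown replicate 3.

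For NR1H4, the list of FXR targets and bile acid genes held 23 genes, of which 13 passed the filter, 5 above and 8 below 0, with a median of -0.049, which ran from -0.24, with control replicate 2 left out, to 0.056, with control replicate 3 left out. NR0B2, the repressor SHP that FXR induces, was at 8.56 and 10.1 RPKM in knockdown, against 15.9, 8.43 and 11.2 RPKM in control, a log2 difference of -0.29 (SE 0.29, limma adjusted p = 0.803). It and FGF19, a hormone that FXR induces in human cells, at 4.62 and 4.30 RPKM in knockdown against 5.47, 2.94 and 6.65 RPKM in control, were picked out after their values were seen. In both, control replicate 2 was below both knockdown libraries, unlike for NR1H4 itself. That library rests on 19 reads for NR0B2 and 14 reads for FGF19, so the order is not settled. The 3 most abundant genes of the list were SULT2A1, a bile acid sulfotransferase, FGFR4, the receptor of FGF19, and SDC1, a syndecan. SULT2A1 was at 69.2 and 68.5 RPKM in knockdown and 57.3 to 60.7 RPKM in control, FGFR4 at 66.0 and 67.4 RPKM in knockdown and 51.9 to 79.3 RPKM in control, and SDC1 at 19.2 and 19.4 RPKM in knockdown and 19.7 to 26.6 RPKM in control. Also chosen after their values were seen were 3 genes at or near 0. CYP7A1, the enzyme that limits bile acid synthesis, was listed at 0 in all 5 libraries, and the bile salt pump ABCB11 and the importer SLC10A1 were at or below 0.105 RPKM.

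Target lists of the other factors share genes such as ALB and are not independent of each other. Of 35 HNF4A targets, 24 passed the filter, 17 above and 7 below 0, with a median of 0.19, which was 0.11 without knockdown replicate 3 and 0.077 with the exon length trend removed. AMBP, a plasma protein precursor, was at 593 and 773 RPKM in knockdown and 435 to 671 RPKM in control, and APOA2, an apolipoprotein, at 508 and 662 RPKM in knockdown and 404 to 558 RPKM in control. Of 28 C/EBP targets, 17 passed the filter, 15 above and 2 below 0, with a median of 0.17, which was 0.10 without knockdown replicate 3 and 0.083 with that trend removed. C3, the central complement protein, was at 524 and 401 RPKM in knockdown and 376 to 459 RPKM in control, and ORM1, an acute phase glycoprotein, at 370 and 549 RPKM in knockdown and 341 to 525 RPKM in control. Of 20 FOXA targets, HNF4A among them, 13 passed the filter, 5 above and 8 below 0, with a median of -0.076, which was 0.066 without knockdown replicate 1. APOB, the apolipoprotein of secreted lipid particles, was at 83.5 and 45.7 RPKM in knockdown, against 85.6, 134.1 and 130.5 RPKM in control, a log2 difference of -0.88 (SE 0.34, adjusted p = 0.71). The exon length of APOB is 14828 bases, beside a median of 4044 bases over all genes tested. The part of the exon length trend in its difference was not tested. HNF4A stood at 21.8 RPKM or more in every library, while 3 of its targets, again chosen after their values were seen, F9, a coagulation factor, PCK1, an enzyme of glucose synthesis, and NR1I2, a xenobiotic receptor, averaged under 0.05 RPKM.

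**Figure D5:**
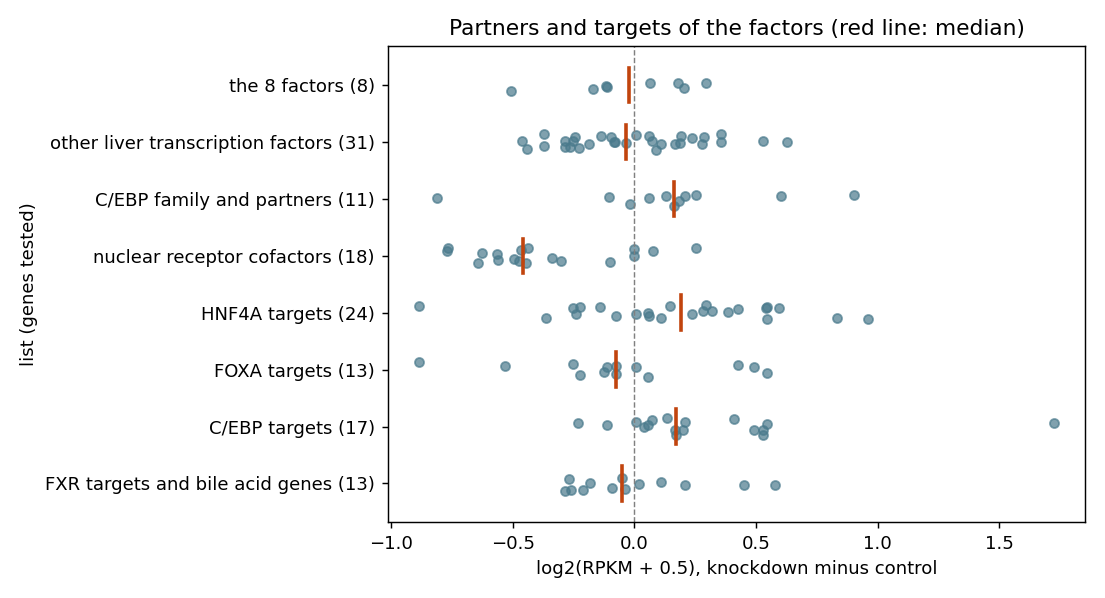
Log2 difference, knockdown minus control, of each tested gene (points) in the lists of the factors, their relatives, cofactors and targets, with the number tested in brackets and a red line at the median. Medians run from -0.46 for nuclear receptor cofactors to 0.19 for HNF4A targets, and no gene shown passed an adjusted p of 0.05.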

How the data were processed

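The authors deposited 1 table of RPKM values, per the table's name and the labels, with 1 column for each of 6 libraries. HISAT2 and the build GRCh38 are named in the submitters' processing notes. No source used here gives the read counter, annotation, use of strand or filters. All 58676 gene IDs matched GENCODE release 29. Multiplied by summed exon length, 100% of RPKM values above 0 were whole multiples of 1 step in 5 libraries (tolerance 0.002 of a read) and 0.47% in knockdown replicate 2, which was left out. The multiples were read as reads, and intervals on them are exact Poisson 95% intervals.

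Knockdown was compared with control by limma 3.58.1 (R 4.3.3) on log2(RPKM + 0.5), with a variance trend, two-sided, where 3 of the 5 libraries reached 0.5 RPKM, with Benjamini-Hochberg adjustment over 15408 genes. Named from each list of partners, targets and cell type markers were its 3 genes of highest mean level and any called. Other genes named, the markers at 0 and the noncoding neighbours among them, were chosen after their values were seen. The factors and lists were chosen with earlier results of these data known. Alternatives were pseudocounts, filters, scalings, no trend, voom, the replicate number as a block, each library left out and removal of trends against exon length and, chosen after the data were seen, GC content. The code was tested on simulated data. RefSeq promoters matched 7 of 8 factors.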

Additional observations from a re-analysis of the deposited data

How the results depend on the processing

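None of the 8 factors passed an adjusted p under 0.05 in any of 18 alternatives. Of 144 recomputed differences of the factors, 130 kept their direction and 14 turned it, and the lowest limma adjusted p among them was 0.259. These are not 144 separate checks. Another filter or no variance trend leaves a factor's difference unchanged, so those settings could not turn it. The replicate block gave the same differences as leaving out control replicate 2. Across all genes, 33 higher and 7 lower genes were called with the replicate number as a block, at 1 residual degree of freedom, and 3 higher and 1 lower with voom and sample weights. Every other alternative called 0, leaving out each library included (0 to 0 higher, 0 to 0 lower). The shared replicate numbers were not taken as pairs in the main fit, and control replicate 2 has no partner. Deviations from group means correlated at -0.17 and 0.018 in the same-numbered pairs. With 2 knockdown libraries these deviations mirror each other: knockdown replicates 1 and 3 correlated at -0.17 and 0.17 with control replicate 1. They therefore cannot decide whether the samples are paired. CEBPA, at 0.067, turned to -0.039 with voom, -0.15 with voom and sample weights, -0.34 with the replicate block, -0.064 with the length trend removed and -0.23 with length and GC trends removed, and ran from -0.34 to 0.29 when 1 library was left out. ONECUT1 turned to 0.012 with sample weights and 0.063 with the block, and ran from -0.45 to 0.21 with 1 library left out. HNF4A ran from -0.31 to 0.080 with 1 library left out, and was 0.080 without knockdown replicate 3. With length and GC trends removed FOXA3 became -0.029 and CEBPB -0.029. NR1H4 stayed between -0.60 and -0.41. The median of the 8 factors, -0.023, ran from 0.0029 to 0.098 with 1 library left out and was -0.14 with length and GC trends removed. The cause of these shifts was not tested. Leaving out a knockdown library leaves 1, assumed to vary like the controls. Control replicate 2, with 1948940 reads, limits all factors.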
